A study of Mus musculus with 12 samples.

Results

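Reactive gliosis is the change that astrocytes and Müller cells, the glia of the retina, undergo after injury or stress, and 10 of its best known genes were followed in whole mouse retina, out of 27179 gene IDs counted in each library. The genes were taken as a list of names and found by Entrez ID, and all 10 passed the filter on low counts, as did 16475 genes in total. They were Gfap, Vim and Nes (intermediate filament proteins), Lcn2 and Cp (secreted metal-handling proteins), Steap4, S1pr3 and Cd44 (membrane proteins), Cebpd (a transcription factor) and Fgf2 (a growth factor). The series compared control mice with mice labelled Glia-ABCA1KO (KO below), in which ABCA1, a transporter that exports cholesterol and phospholipids from cells, was deleted in glia. Retinas were taken at 3 and at 12 months, with 3 libraries in each of the 4 groups (3-month control, 3-month KO, 12-month control, 12-month KO). The extraction protocol in the labels names the mice Astro-KO. The sources used here do not give the promoter or Cre line behind the deletion, the strain, the sex, or whether each library is a separate animal. The p-values therefore speak only of the spread among these samples, which may be technical.

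Müller cells span the retina and astrocytes lie among the ganglion cell axons. In gliosis, Müller cells classically switch on Gfap, which they hardly use at rest, and cytokines of the interleukin-6 family acting through STAT3 drive part of that switch. Vim is made by resting Müller cells already, whereas Nes belongs to progenitor cells, to the walls of small vessels and, after injury, to reactive glia. Lcn2, Steap4, S1pr3, Cd44 and Cp rise in reactive astrocytes after many kinds of insult, Cebpd is an immediate responder to inflammatory cytokines, and Fgf2 is released in stressed retina and protects photoreceptors.

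The promoter stretches shown here let a reader see what the genes differ in before their levels are given. They come from RefSeq (GRCm38.p6), cover 250 bases before to 50 bases after a transcription start and were held for 9 of the 10 genes. Gfap and Steap4 are shown because they were the members with the letters TTCNNNGAA, to which STAT factors bind, and Nes and S1pr3 because their levels changed with age (values below). Capitals mark motif matches, and all lines read 5′ to 3′ on the gene's strand.
Gfap promoter (chr11:102897151-102897450, minus strand): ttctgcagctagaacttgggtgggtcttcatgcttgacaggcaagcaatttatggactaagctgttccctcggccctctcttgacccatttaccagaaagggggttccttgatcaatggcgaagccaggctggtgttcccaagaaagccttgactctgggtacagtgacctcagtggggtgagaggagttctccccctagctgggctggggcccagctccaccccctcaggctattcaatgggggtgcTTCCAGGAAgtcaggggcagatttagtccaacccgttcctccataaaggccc
Steap4 promoter (chr5:7960222-7960521, plus strand): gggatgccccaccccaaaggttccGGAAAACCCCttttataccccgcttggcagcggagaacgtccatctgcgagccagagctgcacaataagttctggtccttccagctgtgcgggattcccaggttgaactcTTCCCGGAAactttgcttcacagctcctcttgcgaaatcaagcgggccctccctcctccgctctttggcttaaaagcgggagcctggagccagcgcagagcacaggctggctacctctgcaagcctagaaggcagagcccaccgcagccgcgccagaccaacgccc
Nes promoter (chr3:87970843-87971142, plus strand): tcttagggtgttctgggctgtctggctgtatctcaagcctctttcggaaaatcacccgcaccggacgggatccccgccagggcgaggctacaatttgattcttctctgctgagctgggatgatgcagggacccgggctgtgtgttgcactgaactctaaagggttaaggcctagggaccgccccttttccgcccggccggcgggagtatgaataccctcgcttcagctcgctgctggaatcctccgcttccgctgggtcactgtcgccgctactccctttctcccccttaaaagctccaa
S1pr3 promoter (chr13:51408368-51408667, plus strand): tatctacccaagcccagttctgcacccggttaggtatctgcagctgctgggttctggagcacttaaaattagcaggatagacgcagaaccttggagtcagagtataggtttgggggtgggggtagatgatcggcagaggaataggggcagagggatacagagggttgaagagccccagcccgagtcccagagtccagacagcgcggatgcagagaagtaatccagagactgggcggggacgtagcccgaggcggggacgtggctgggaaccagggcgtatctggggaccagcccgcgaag

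The motifs searched on both strands were STAT (TTCNNNGAA), C/EBP (TTGCNNCAA), AP-1 (TGANTCA) and the 10-base NF-kappaB consensus. In Gfap the STAT match TTCCAGGAA lay from base -2 to base 7, counted from the start, at chr11:102897194-102897202. In Steap4 the STAT match TTCCCGGAA lay from base -116 to base -108, at chr5:7960356-7960364, and the NF-kappaB match from base -226 to base -217. Of 32851 promoters of this length 8.3% held the STAT letters, 2.08% the C/EBP letters, 7.81% the AP-1 letters and 5.8% the NF-kappaB consensus. Among the 9 genes, 2 held STAT letters, 0 C/EBP letters, 1 AP-1 letters (Cp) and 2 NF-kappaB letters (Steap4 and Vim). No matches overlapped. A match describes the letters of this window and does not show that a factor binds there. CpG dinucleotides numbered 24 in the Fgf2 window, 18 in Nes, 16 in Steap4, 14 in S1pr3, 11 in Vim, 6 in Cd44, 3 in Gfap and Lcn2, and 2 and 4 in the windows of Cp, with a median of 7 over all promoters.

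The libraries held 29027099 to 30438026 counts. Rod markers (summed level 44900 to 53400 CPM) and Müller cell markers (4140 to 4460 CPM) were high in every library, and none of the 10 Müller or 8 astrocyte markers was at 0. A pair of libraries stood apart. Replicate 2 of 3-month control differed from its group by a median absolute log2 difference of 0.213 and 0.21 over 14356 genes, against 0.0904 between the other two, and replicate 1 of 12-month KO by 0.169 and 0.185, against 0.104. Lens markers summed to 4840 CPM in that 3-month control library, to 46.8 and 187 CPM in the others of its group and to 9.91 to 33 CPM elsewhere. Skeletal muscle markers summed to 87.7 to 103 CPM in 3-month control against 7.74 to 13 CPM elsewhere. Every library of 3-month control thus exceeded all others for both lists. The source of this RNA cannot be told apart from the deletion at 3 months, or from age within control retina. It also enters every test of the 12- against the 3-month KO effect. Xist stood at 52.3 to 85.5 CPM in 12-month KO and at most 0.609 CPM in the other groups, while 4 Y-linked genes summed to 126 to 151 CPM in 12-month KO and 119 to 135 CPM in 12-month control. At 12 months the source of the Xist level and the deletion cannot be told apart. Since Xist was low in 3-month KO, that source cannot be separated from age within KO retina either. The same limit holds for every test of the 12- against the 3-month KO effect. Abca1 itself was not lower in KO retina (log2 fold change 0.21 ± 0.14 (SE) at 3 months and 0.24 ± 0.14 at 12 months; adjusted p = 0.70 and 0.65, edgeR), and whole-retina counts over all exons do not check a deletion made in glia alone.

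Of the 10 genes, 0 passed an adjusted p of 0.05 for KO against control at 12 months, where 0.212% of all genes did, and 0 at 3 months, where 0.225% did (edgeR; counts by other tools and at an unadjusted p follow). From 3 to 12 months, 2 of the 10 fell in control, where 0.71% of all genes fell and 1.4% rose, and in KO 1 rose and 1 fell, where 1.54% rose and 0.832% fell. Nes, the filament protein of progenitors and vessel walls, fell by 0.86 on the log2 scale in control and by 0.90 in KO retina from 3 to 12 months. S1pr3, a receptor for sphingosine-1-phosphate, rose 1.59-fold with age in KO retina. Cebpd, the cytokine-responsive transcription factor, fell by 0.77 on the log2 scale with age in control retina. The classic filaments Gfap and Vim, and Lcn2, Steap4, Cd44, Cp and Fgf2, passed in no comparison.

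The levels per exon length set the genes in order. In CPM scaled by TMM and divided by the kilobases of exon in GENCODE M21 (CPM per kb), Vim was highest at 15.2 ± 3.05 (SD over 12 libraries), followed by Cp at 9.36 ± 1.1, S1pr3 at 8.1 ± 1.65, Cebpd at 4.01 ± 0.982 and Gfap at 3.38 ± 0.457. Lcn2 (1.46 ± 0.51), Nes (1.08 ± 0.368), Cd44 (0.849 ± 0.102), Fgf2 (0.389 ± 0.109) and Steap4 (0.266 ± 0.0841) followed. Gfap thus stood well under Vim in every library (2.75 to 4.48 against 13.1 to 24.2 CPM per kb). The ranges of neighbours overlapped except between Vim and Cp and between Cd44 and Fgf2. Lcn2 had the widest range of the 10, its highest library 2.95 times its lowest, and Cd44 the narrowest at 1.52 times.

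**Figure D1:**
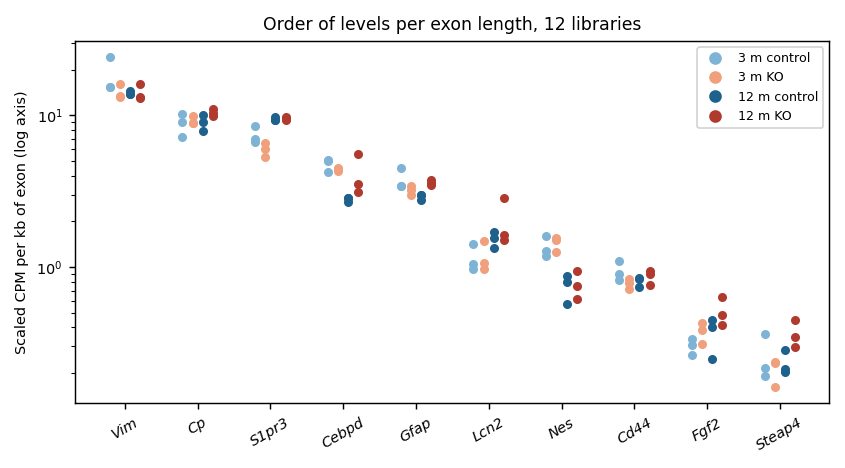
Levels of the 10 genes in scaled CPM per kb of exon (log axis), each point a library coloured by group, genes ordered by their mean over 12 libraries. Vim lies above all other genes in every library and Steap4 and Fgf2 lie lowest.

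Gfap (Entrez 14580, chromosome 11 from 102887336 to 102897200, GRCm38, minus strand) encodes the filament protein of astrocytes and reactive Müller cells. At 3 months its level was 14.5, 18.9 and 14.3 CPM in control and 12.6, 14.6 and 13.5 CPM in KO retina. At 12 months it was 11.6, 12.7 and 12.6 CPM in control and 15.9, 14.7 and 15.0 CPM in KO retina. The 12-month KO libraries all lay above those of 12-month control, as for 8.32% of all genes, while at 3 months the groups overlapped. The log2 fold change of KO against control was 0.31 ± 0.12 (SE; 95% interval 0.05 to 0.56) at 12 months and -0.23 ± 0.12 at 3 months, with adjusted p = 0.50 and 0.68 (edgeR). With age the log2 fold change was -0.37 ± 0.12 in control and 0.17 ± 0.12 in KO retina, with adjusted p = 0.14 and 0.63 (edgeR). The 12-month KO effect exceeded the 3-month one by 0.54 ± 0.17 (unadjusted p = 0.0053, adjusted p = 0.81, edgeR), so neither a KO effect on Gfap nor its difference between 3 and 12 months passed. The 12-month KO effect was 0.27 without replicate 1 of 12-month KO. Without replicate 2 of 3-month control, the library richest in lens RNA, the 3-month KO effect was -0.09 and the change with age in control -0.23. The libraries left in that group also held lens and muscle RNA, whose part was not tested. In bulk retina, fewer cells of a type and less RNA per cell cannot be told apart, here or for the genes that follow.

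Vim (Entrez 22352, chromosome 2 from 13574311 to 13582826) encodes vimentin, the filament protein of resting Müller cells, which lens cells make as well. Control retina had 73.4, 115 and 72.7 CPM at 3 months and 68.4, 65.7 and 65.6 CPM at 12 months. KO retina had 63.9, 75.9 and 62.5 CPM at 3 months and 76.7, 62.1 and 62.6 CPM at 12 months. A single library, replicate 2 of 3-month control, stood above the other 11, which ran from 62.1 to 76.7 CPM. The KO effect was 0.01 ± 0.15 (log2, SE) at 12 months with a 95% interval from -0.32 to 0.34, and at this age the libraries of KO spanned those of control. At 3 months it was -0.37 ± 0.15 (adjusted p = 0.66, edgeR), and -0.12 without the library richest in lens RNA. The change with age in control went from -0.39 to -0.13 without that library. Gfap, Lcn2, S1pr3 and Cd44 were also highest of their group in that library. The part of lens RNA in these values was not tested.

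**Figure D2:**
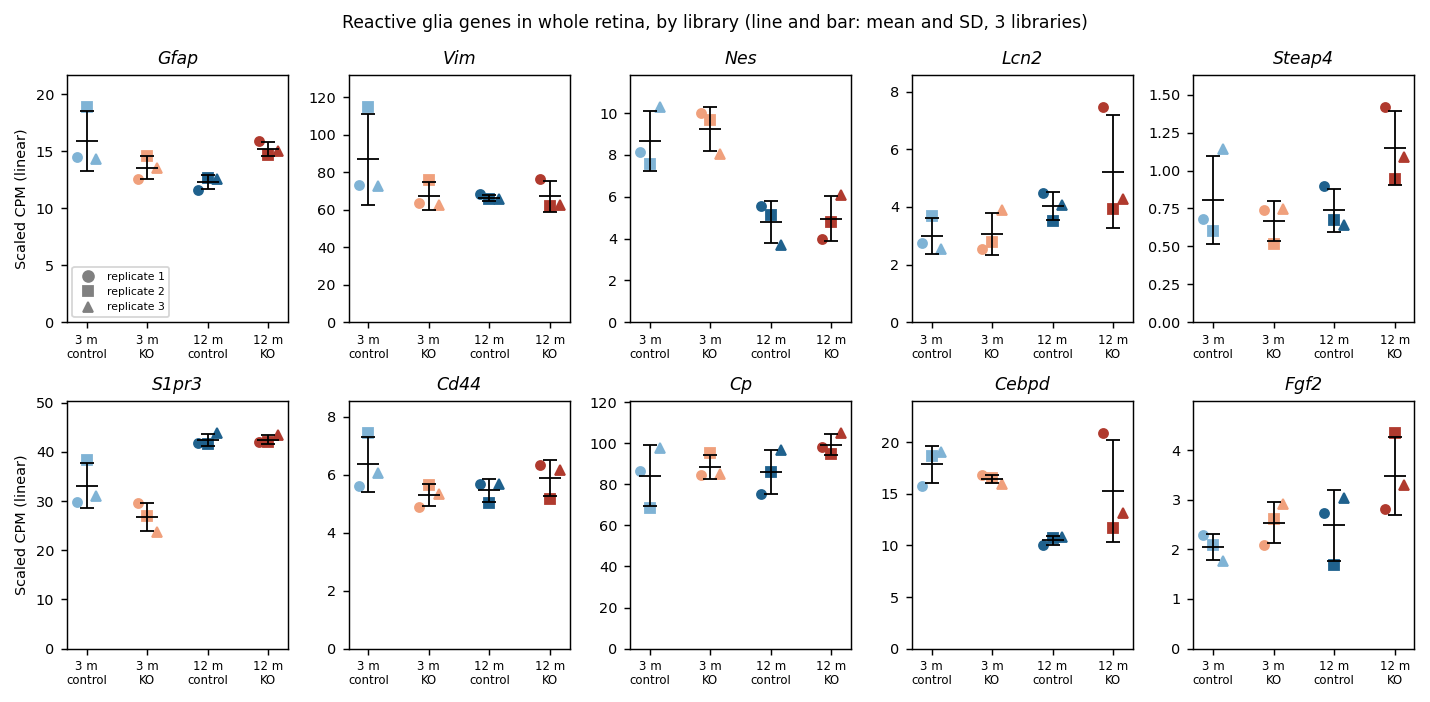
Scaled CPM (linear axes from 0) of the 10 genes in the 12 libraries, with the mean and SD of the 3 libraries of a group as line and bar. Nes is lower in all 6 libraries of 12 months than in all 6 of 3 months, S1pr3 is highest at 12 months, and Cebpd in 12-month KO spreads from 11.7 to 20.9 CPM.

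Nes (Entrez 18008, chromosome 3 from 87971093 to 87980451) encodes nestin, and it was the member of the filament group that passed an adjusted p of 0.05 (edgeR). Control retina had 8.15, 7.58 and 10.3 CPM at 3 months and 5.58, 5.11 and 3.68 CPM at 12 months. KO retina had 10.0, 9.67 and 8.05 CPM at 3 months and 3.96, 4.81 and 6.08 CPM at 12 months. All 6 libraries of 12 months lay below all 6 of 3 months. The share of all genes that split by age in this way was not counted. Nes fell from 8.68 ± 1.44 to 4.79 ± 0.989 CPM (SD, n = 3) in control, a log2 fold change of -0.86 ± 0.19 (SE; adjusted p = 0.014, edgeR). In KO retina it fell from 9.25 ± 1.05 to 4.95 ± 1.06 CPM (SD, n = 3), a log2 fold change of -0.90 ± 0.18 (adjusted p = 0.0090, edgeR). The KO effects were 0.09 ± 0.18 at 3 months and 0.05 ± 0.19 at 12 months, with 95% intervals from -0.28 to 0.46 and from -0.35 to 0.44. Leaving out 1 library ended the call in control without replicate 3 of either age (log2 fold change -0.72 and -0.70, adjusted p = 0.083 and 0.10, edgeR). It ended the call in KO without replicate 1 or 2 of 3 months (-0.84 and -0.87, adjusted p = 0.060 and 0.054, edgeR).

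Markers of vessel cells are given beside Nes, since those cells make it. The 10 pericyte markers summed to 64.3 to 83.1 CPM in 3-month control and 54.4 to 61.6 CPM in 12-month control, and to 64.5 to 67.2 CPM in 3-month KO and 50.6 to 60.4 CPM in 12-month KO. They were thus lower in the older libraries of each genotype too. Of the 10, only Rgs5, a pericyte regulator of G protein signalling, passed with age in control (log2 fold change -0.61 ± 0.14, adjusted p = 0.026, edgeR), and none in KO retina. The 10 endothelial markers overlapped between the ages (290.0 to 303 against 286 to 299 CPM in control), and in KO the 12-month range of 275 to 312 CPM spanned that of 3 months. None of these markers was at 0 in all libraries, and their part in the fall of Nes was not tested. Skeletal muscle markers, high in 3-month control, summed in KO retina to 8.4 to 13 CPM at 3 months and 9.45 to 11.2 CPM at 12 months.

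**Figure D3:**
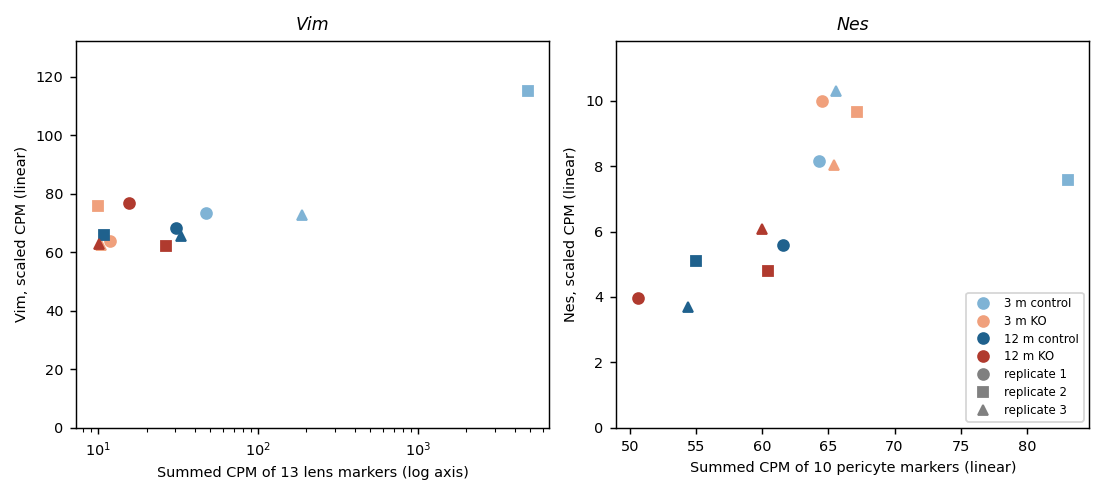
Left, Vim against the summed CPM of 13 lens markers (log axis), and right, Nes against the summed CPM of 10 pericyte markers, each point a library. Replicate 2 of 3-month control stands alone at 115 CPM of Vim and 4840 CPM of lens markers, and the libraries of 12 months lie lower for both Nes and pericyte markers.

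Among the secreted proteins, Lcn2 (Entrez 16819, chromosome 2 from 32384637 to 32387739) encodes lipocalin-2, which binds bacterial iron carriers. It had 2.75, 3.69 and 2.54 CPM in 3-month control, 2.53, 2.78 and 3.89 CPM in 3-month KO, 4.47, 3.50 and 4.08 CPM in 12-month control and 7.47, 3.93 and 4.28 CPM in 12-month KO. The high value belongs to replicate 1 of 12-month KO, and the other libraries of that group lay within the range of 12-month control. The KO effect at 12 months was 0.38 ± 0.24 (log2, SE; adjusted p = 0.67, edgeR), and 0.03 without that library. With age the log2 fold change was 0.77 ± 0.24 in KO (adjusted p = 0.12, edgeR; 0.42 without that library) and 0.42 ± 0.25 in control (adjusted p = 0.53, edgeR).

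Cp (Entrez 12870, chromosome 3 from 19956933 to 20009750) encodes ceruloplasmin, the copper-bearing oxidase that lets iron leave cells. Control retina had 86.4, 68.6 and 98.0 CPM at 3 months and 75.2, 86.1 and 96.8 CPM at 12 months. KO retina had 84.7, 95.2 and 85.2 CPM at 3 months and 98.4, 94.9 and 105 CPM at 12 months. The groups overlapped in each comparison. The KO effect was 0.21 ± 0.11 at 12 months (95% interval -0.02 to 0.44, adjusted p = 0.61, edgeR) and 0.07 ± 0.11 at 3 months. Cp shares 108 exonic bases with Hps3 on the other strand, and the sources used here do not give the strand setting of the counting. Hps3 itself had a KO effect of 0.38 ± 0.10 at 12 months (adjusted p = 0.19, edgeR).

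Of the membrane proteins, S1pr3 (Entrez 13610, chromosome 13 from 51408618 to 51422797) gave the firmest change. It had 29.8, 38.3 and 31.1 CPM in 3-month control and 29.5, 27 and 23.7 CPM in 3-month KO. At 12 months it had 41.8, 41.5 and 43.8 CPM in control and 41.9, 42.0 and 43.5 CPM in KO retina. All 6 libraries of 12 months lay above all 6 of 3 months, and at 12 months the genotypes were side by side. As for Nes, the share of all genes with such a split was not counted. The 10 microglia markers summed to 34.9 to 40.7 CPM in the 6 libraries of 3 months and 49.7 to 56.5 CPM in the 6 of 12 months, and so split by age in the same way. Among them the complement gene C1qc passed in both genotypes (log2 fold change 0.78 ± 0.17 in control and 0.66 ± 0.16 in KO, adjusted p = 0.013 and 0.034, edgeR) and C1qa in KO (0.77 ± 0.13, adjusted p = 0.0013, edgeR). Their part in the change of S1pr3 was not tested, nor was that of the source of the Xist level in 12-month KO. In KO retina S1pr3 rose from 26.7 ± 2.9 to 42.5 ± 0.901 CPM (SD, n = 3), a log2 fold change of 0.67 ± 0.10 (SE; adjusted p = 5e-04, edgeR), and this call was kept under all 21 alternatives (adjusted p from 1e-07 to 0.0091). In control it went from 33.1 ± 4.56 to 42.4 ± 1.24 CPM (SD, n = 3), a log2 fold change of 0.36 ± 0.10 (adjusted p = 0.068, edgeR). Without replicate 2 of 3-month control, its highest 3-month library, the value in control was 0.48 (adjusted p = 0.0027, edgeR), and DESeq2 and limma-voom also called it (adjusted p = 0.027 and 4.9e-04). At 3 months the 3 KO libraries lay below the 3 control libraries, as for 7.66% of all genes. The log2 fold change was -0.31 ± 0.10 (unadjusted p = 0.0061, adjusted p = 0.58, edgeR; -0.19 without replicate 2 of 3-month control). The part of the lens and muscle RNA in 3-month control was not tested, here or in the change with age in control. At 12 months the KO effect was 0.00 ± 0.10, with a 95% interval from -0.20 to 0.21. Set against each other, the 12- and 3-month KO effects on S1pr3 differed by 0.31 ± 0.14 (unadjusted p = 0.039, adjusted p = 1.0, edgeR), which did not pass.

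Cd44 (Entrez 12505, chromosome 2 from 102811141 to 102901669), the receptor for hyaluronan, moved little. It had 5.61, 7.44 and 6.06 CPM in 3-month control, 4.89, 5.66 and 5.34 CPM in 3-month KO, 5.68, 5.01 and 5.70 CPM in 12-month control and 6.34, 5.18 and 6.15 CPM in 12-month KO. The groups overlapped in all 4 comparisons, with KO effects of -0.27 ± 0.16 at 3 months and 0.11 ± 0.16 at 12 months (adjusted p = 0.69 and 0.87, edgeR). Without replicate 2 of 3-month control, its highest library, the 3-month value was -0.14. Steap4 (Entrez 117167, chromosome 5 from 7960472 to 7982213), a metalloreductase, was the least abundant gene, with 15 to 43 counts in a library. It had 0.680, 0.603 and 1.14 CPM in 3-month control, 0.742, 0.514 and 0.744 CPM in 3-month KO, 0.901, 0.673 and 0.641 CPM in 12-month control and 1.42, 0.942 and 1.09 CPM in 12-month KO. The 12-month KO libraries lay above those of 12-month control, as for 8.32% of all genes. The log2 fold change was 0.64 ± 0.37 (95% interval -0.13 to 1.40, adjusted p = 0.65, edgeR). With so few counts, that interval holds both no change and one of 1.40 on the log2 scale.

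Cebpd (Entrez 12609, chromosome 16 from 15887286 to 15889545) encodes C/EBP delta, a transcription factor that cytokines induce in glia. Control retina had 15.8, 18.7 and 19.1 CPM at 3 months and 10.0, 10.7 and 10.8 CPM at 12 months. KO retina had 16.8, 16.5 and 16.0 CPM at 3 months and 20.9, 11.7 and 13.2 CPM at 12 months. The 12-month control libraries were the lowest of the series, and replicate 1 of 12-month KO was the highest. Cebpd fell with age in control from 17.9 ± 1.83 to 10.5 ± 0.387 CPM (SD, n = 3), a log2 fold change of -0.77 ± 0.16 (SE; adjusted p = 0.013, edgeR). That call was lost without replicate 3 of 3-month control or any 1 library of 12-month control (log2 fold change -0.72 to -0.79, adjusted p = 0.053 to 0.066, edgeR). The part of the lens and muscle RNA in 3-month control was not tested. In KO retina the change with age was -0.11 ± 0.16 (adjusted p = 0.86, edgeR), and -0.40 without replicate 1 of 12 months (adjusted p = 0.10, edgeR). With limma-voom and quality weights it was -0.36 and passed (adjusted p = 0.045). The KO effect at 12 months was 0.54 ± 0.16 (95% interval 0.20 to 0.88, unadjusted p = 0.0036, adjusted p = 0.28, edgeR), with all 3 KO libraries above the controls, as for 8.32% of all genes. Without replicate 1 of 12-month KO it was 0.25 (adjusted p = 0.63, edgeR). It exceeded the 3-month KO effect of -0.12 ± 0.16 by 0.66 ± 0.23, which did not pass (adjusted p = 0.98, edgeR). Cebpd shares 562 exonic bases in GENCODE with Spidr on the other strand. Spidr did not pass in any comparison (log2 fold change 0.27 ± 0.15 with age in control, adjusted p = 0.53, edgeR).

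Fgf2 (Entrez 14173, chromosome 3 from 37348477 to 37410106), the growth factor, had 50 to 129 counts in a library. It had 2.28, 2.08 and 1.77 CPM in 3-month control, 2.09, 2.61 and 2.91 CPM in 3-month KO, 2.74, 1.68 and 3.04 CPM in 12-month control and 2.81, 4.34 and 3.29 CPM in 12-month KO. The highest library was replicate 2 of 12-month KO, and the groups overlapped in every comparison. The KO effects were 0.31 ± 0.25 at 3 months and 0.48 ± 0.24 at 12 months (95% interval -0.03 to 0.99), with adjusted p = 0.74 and 0.59 (edgeR). The 12-month value was 0.27 without replicate 2 of 12-month control, the lowest library, and 0.29 without replicate 2 of 12-month KO, the highest. Nudt6, which is transcribed from the other strand and shares 640 exonic bases with Fgf2, rose with age in KO retina (log2 fold change 0.59 ± 0.14, adjusted p = 0.027, edgeR). Reads of the 2 genes in that stretch cannot be assigned here.

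Set against all genes, KO and control at 12 months gave few calls. At an adjusted p below 0.05 edgeR called 0.212% of the 16475 genes and 0 of the 10 members. At an unadjusted p below 0.05 there were 2 members, Gfap and Cebpd, against 8.7% of all genes, and DESeq2 and limma-voom called 0 members. The libraries of the 2 groups did not overlap for Gfap, Steap4 and Cebpd, each higher in KO, against 8.32% of all genes higher in this way. The median log2 fold change of the 10 was 0.26, against -0.002 over all genes. All 10 fitted values were above 0, against 49.3% of all genes, but that of S1pr3 was 0.00, and those of Vim, Nes and S1pr3 took the other sign under 4, 2 and 8 of the 21 alternatives. Replicate 1 of 12-month KO held the highest of the 3 KO values for 6 of the 10 genes (Gfap, Vim, Lcn2, Steap4, Cd44 and Cebpd). In the authors' deposited table for this comparison 0 of the 10 genes, and 0.636% of 17139 genes, had an adjusted p below 0.05. The largest log2 fold changes of the 10 in the authors' deposited table were 0.29 for Cebpd (adjusted p = 0.23, DESeq2) and 0.22 for Gfap (adjusted p = 0.47, DESeq2). Steap4 had 0.11 ± 0.08 (SE) and Fgf2 0.16 ± 0.1 there, against 0.64 ± 0.37 and 0.48 ± 0.24 in the edgeR fit. Values and SEs of these genes were thus smaller in the deposited table, so sizes and order are not compared between it and the fit.

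At 3 months 0.225% of all genes passed, and 0 of the 10 (edgeR). DESeq2 and limma-voom called 0 too. At an unadjusted p below 0.05 there were 2 members, Vim and S1pr3, both lower in KO, against 7.5% of all genes. The groups did not overlap for S1pr3, which was lower in KO, against 7.66% of all genes. The median of the 10 was -0.18, against 0.002 over all genes. The 2 KO comparisons share no libraries, but each shares its libraries with the comparisons of age. A difference between the 12- and 3-month KO effects was called for 0.127% of all genes by edgeR, and for 0 of the 10 by edgeR, DESeq2 and limma-voom, with 3 members (Gfap, S1pr3 and Cebpd) at an unadjusted p below 0.05, against 4.33% of all genes. The median difference was 0.36 over the 10 and -0.008 over all genes.

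**Figure D4:**
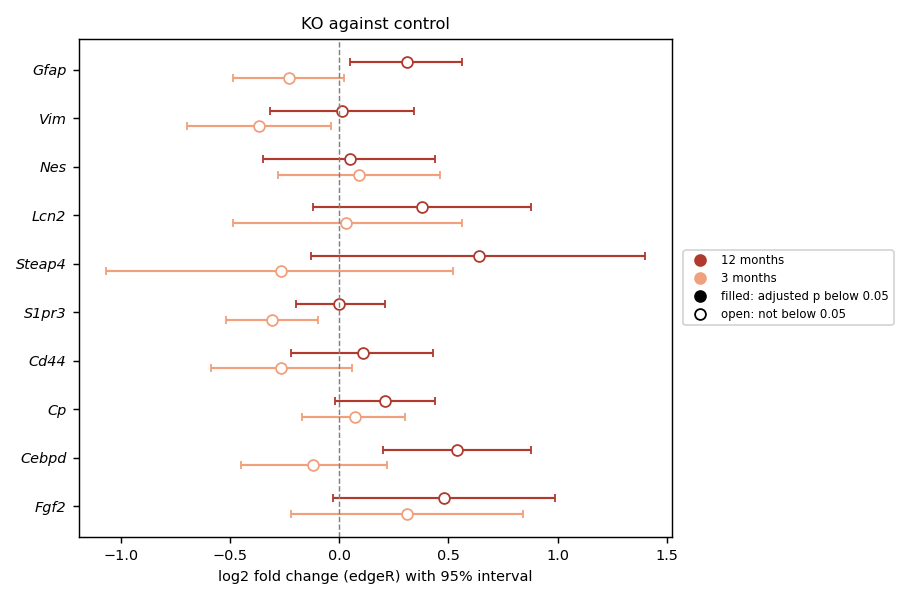
Log2 fold change of KO against control for the 10 genes at 12 and 3 months, with 95% intervals from the edgeR fit. All symbols are open, since no gene passed, and the intervals of Vim, Nes and S1pr3 at 12 months centre near 0.

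With age, 2 members were called in each genotype. In control retina 1.4% of all genes rose and 0.71% fell, and of the 10 members 0 rose and 2 fell (Nes and Cebpd). Libraries did not overlap for 4 members lower at 12 months (Gfap, Vim, Nes and Cebpd) and 1 higher (S1pr3), against 8.29% and 9.21% of all genes. In KO retina 1.54% of all genes rose and 0.832% fell, and of the members S1pr3 rose and Nes fell. Libraries did not overlap for 4 members higher (Gfap, Lcn2, Steap4 and S1pr3) and 1 lower (Nes), against 10.7% and 11.5% of all genes. At an unadjusted p below 0.05 (edgeR) there were 5 members in control (Gfap, Vim, Nes, S1pr3 and Cebpd), against 12.5% of all genes. In KO retina there were 4 (Nes, Lcn2, Steap4 and S1pr3), against 13.3%. The medians of the 10 were -0.17 in control and 0.17 in KO retina. Gfap, Steap4 and Cd44 had fitted values below 0 in control and above 0 in KO retina, but no member passed the test of that difference, which is the same as the test of the 12- against the 3-month KO effect.

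**Figure D5:**
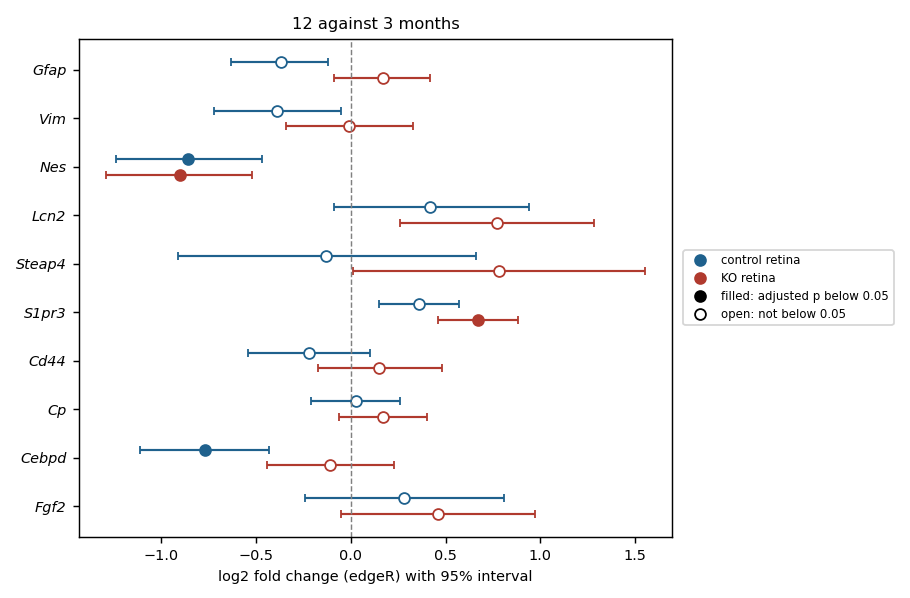
Log2 fold change of 12 against 3 months in control and in KO retina for the 10 genes, with 95% intervals from the edgeR fit, and filled symbols where the adjusted p is below 0.05. Nes is filled in both genotypes, Cebpd in control and S1pr3 in KO retina.

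Other genes of the same processes were taken from lists by role. Among 20 further genes of the reactive glia response, chosen like the members with earlier results known, 16 had enough counts to test. Of these, 2 passed for KO at 12 months, both higher, against 0.212% of all genes in either direction. They were Edn2, an endothelin ligand of stressed photoreceptors (log2 fold change 1.72 ± 0.18, adjusted p = 6.4e-05, edgeR), and the protease inhibitor Serpina3n (0.90 ± 0.18, adjusted p = 0.046, edgeR). Both also passed the test of the 12- against the 3-month KO effect (1.90 ± 0.26 and 1.54 ± 0.26, adjusted p = 0.0013 and 0.013, edgeR). Of all genes 0.127% passed that test, and no member did. With age in KO retina 4 of the 16 rose, C4b (1.16), Edn2 (1.42), A2m (0.98) and Serpina3n (1.2), against 1.54% of all genes, and in control C4b alone (0.61, adjusted p = 0.025, edgeR), against 1.4%. The microglia markers given beside S1pr3 were higher in the same older libraries of both genotypes, and their part in these changes was not tested. In 12-month KO the part of the source of the Xist level was not tested either. The list's median KO effect at 12 months was 0.22, and that of the 10 members 0.26. Medians of the other lists ran from -0.45 (lens markers) to 0.63 (muscle markers), with 0.2 for pericyte and 0.17 for microglia markers. Those of Müller cell, astrocyte, endothelial, ganglion cell and rod markers lay from -0.05 to 0.06. Medians above that of the members were thus seen only in muscle (0.63) and cornea (0.33) markers. Both were sparse at 12 months, with sums of 7.74 to 11.2 and 4.64 to 11.5 CPM. Whether the medians of the lists differ was not tested.

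Around the filaments, 16 further filament and linker genes were tested, and none passed for KO at 12 months (median 0.08). Des, the filament gene of muscle and pericytes, was lower in KO at 3 months (log2 fold change -1.19 ± 0.20, adjusted p = 0.0086, edgeR) and fell by 1.89 on the log2 scale with age in control, where muscle markers were high at 3 months. Its part of that muscle RNA was not tested. Around Lcn2, Cp and Steap4, 19 metal-handling and acute-phase genes were tested and none passed for KO at either age, the medians being 0.05 at 12 months and 0.00 at 3 months. Steap2, a metalloreductase of the same family as Steap4, rose with age in both genotypes (0.47 ± 0.09 in control and 0.34 ± 0.09 in KO; adjusted p = 0.0031 and 0.039, edgeR).

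Around S1pr3 and Cd44, 16 of 17 genes of sphingosine-1-phosphate and hyaluronan biology were tested, and none passed in any comparison. Rdx, which links CD44 to the actin cortex, had a KO effect of 0.10 ± 0.08 at 12 months (adjusted p = 0.75, edgeR) and a change with age in KO of 0.05 ± 0.08 (adjusted p = 0.88, edgeR). Around Cebpd, 16 of 17 genes of the C/EBP, STAT3 and NF-kappaB axis were tested and none passed for KO. Nfkbia, the inhibitor of NF-kappaB, fell with age in control (-0.40 ± 0.09, adjusted p = 0.019, edgeR), as Cebpd did. Lif, a cytokine that acts through STAT3, rose with age in KO (1.27 ± 0.31, adjusted p = 0.033, edgeR), and Stat3 itself had a KO effect of 0.16 ± 0.08 at 12 months (adjusted p = 0.57, edgeR). Around Fgf2, 14 of 15 genes of the fibroblast growth factor system were tested and none passed in any comparison, with a median KO effect of 0.03 at 12 months. Müller cell and astrocyte markers had no called member in any comparison, with median KO effects at 12 months of -0.04 and -0.05.

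The genes whose log2 CPM ran most like a member's over the 12 libraries are given as a description, since the libraries share their groups, depth and tissue makeup. For Gfap they were Pcolce, Anxa2, Dct, Pmp22 and Ctsl, with Pearson r from 0.897 to 0.87, and from 0.797 to 0.724 without replicate 2 of 3-month control. For Cebpd they were H1f10, Itm2a, Klf2, Ndufaf6 and Ankra2 (r from 0.905 to 0.877), and for Fgf2 Ndufab1, Ankef1, Zfp593, AI429214 and Vps53 (r from 0.893 to 0.88). Among the members themselves the highest r was that of Vim and Cd44 (0.81, and 0.54 without that library), and for Gfap and Vim it was 0.75 (0.38 without it). The lowest were those of Nes with S1pr3 (-0.81) and with Lcn2 (-0.79). Within groups, as deviations from the group means, r was -0.02 for Nes and S1pr3 and -0.62 for Nes and Lcn2.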

How the data were processed

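RNA from whole retina was sequenced in 12 libraries. Per the labels, RNA integrity numbers exceeded 8.0 and libraries were stranded and poly(A)-selected. Per the submitters' processing notes, HISAT2 2.1.0, GRCm38, featureCounts 1.6.4 and DESeq2 1.22.1 were used. Each library has a deposited file of raw counts by Entrez ID, and the authors added their headerless table for KO against control at 12 months. Its columns were read from their values as the mean normalized count (a signal deposited by the authors), log2 fold change, standard error, score, p-value and its adjusted form. The log2 values, the score and the p-value deposited by the authors are used only where the table is named. Of the counts from 1 to 20, 60.7% to 70.2% were even numbers, so both mates of a fragment seem to have been counted.

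IDs were named from RefSeq (25275 of 27179). Counts were fitted with edgeR 4.0.16 in R 4.3.3: filterByExpr, TMM, robust glmQLFit with 1 coefficient per group over all 12 libraries, glmQLFTest, and Benjamini-Hochberg adjustment over 16475 genes (common coefficient of variation 0.11). CPM values are scaled by TMM, log2 CPM has a prior count of 2, and 95% intervals come from the quasi-likelihood fit. The script was tested on simulated data. Alternatives were RLE factors, 2 other filters, DESeq2 1.42.0, limma-voom with quality weights (limma 3.58.1), a fit of the compared libraries alone, a block for the replicate number, halved counts and each library left out. A test without lens, muscle, cornea, pigment epithelium and blood markers was added later, with the data seen.

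The 10 genes and all lists were chosen with earlier results of these data known. The rule for names took all members, up to 4 called genes of each list or the 2 most abundant where none was called, and the 5 genes most like Gfap, Cebpd and Fgf2 with a mean of at least 1 CPM. Not every gene so taken is described. The overlapping genes, Xist and the Y-linked genes, Stat3, and the genes named from their libraries' lack of overlap were described after their values were seen.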

Additional observations from a re-analysis of the deposited data

How the results depend on the processing

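No member was called for KO against control at either age, or for the difference of the KO effects, under any alternative run. With age, 2 members were called in each genotype, and 3 in control with DESeq2 and limma-voom and 3 in KO with limma-voom, S1pr3 being gained in control and Cebpd in KO. With 1 library left out, the number of members called was 0 for both KO comparisons and their difference, 0 to 3 with age in control and 1 to 2 with age in KO. The number of all genes called with 1 library left out ran from 13 to 166 (KO at 12 months, 35 in the full fit), 21 to 41 (KO at 3 months, 37), 201 to 479 (age in control, 347), 187 to 717 (age in KO, 390) and 14 to 29 (difference, 21). The 166, 717 and 29 came without replicate 2 of 3-month control, the 13 and 201 without replicate 2 of 12-month control, and the 187 without replicate 3 of 3-month KO. DESeq2 called 131, 64, 579, 598 and 44 genes in the same order, and limma-voom 186, 79, 773, 1319 and 50. With all genes that had a count, 64 were called for KO at 12 months. With only the libraries compared, 198 were called with age in control. Without markers of other tissues, 23 were called for KO at 3 months. The genes taken out there included 10 muscle markers and 1 lens marker that the full fit had called. The cause of the other shifts in these numbers was not tested. With the replicate number as a block, 40, 38, 317, 368 and 22 genes and 0, 0, 2, 2 and 0 members were called. The numbers do not pair the libraries: the correlation of the deviations of same-numbered libraries ran from -0.0822 to 0.0441, and libraries did not all correlate best with their own number. Steap4 and Fgf2 had few counts, so their intervals are wide. Even numbers made up 60.7% to 70.2% of counts from 1 to 20 and 48.6% to 50.7% of a higher range of counts, and if both mates were counted, the depth in fragments is lower than the counts.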
